A study of Homo sapiens and Mus musculus with 10 samples.

Results

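Acta1, Ckm, Myh4, Myh2, Tnnt3 and Mb are 6 genes that mark skeletal muscle, and they were taken by gene identifier from the 78298 gene rows of the mouse expression table. The libraries came from tumour-bearing dorsal skin, with 1 piece dissected from each of 4 mice. B16-F0-Luc cells, a mouse melanoma line carrying luciferase, had been injected intradermally on day 1 in 200 µL. All mice then received 30 mg of imiquimod cream, which activates Toll-like receptors, on each day from day 15 to day 21, and skin was taken on day 25.

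The tissue label of all 4 libraries is mouse melanoma tissue, and the labels contradict each other on genotype. The libraries in the table columns named cKO (n = 2) are titled WT and carry the genotype label Campf/f, which is floxed Camp without Cre. The libraries in the columns named WT (n = 2) are titled cko and carry the genotype label K14CreCampf/f, in which a keratin 14 promoter drives Cre in keratinocytes. Floxed Camp alleles are thus in the genotype labels of both groups, although the series text calls the control mice wild type. Libraries are named here by their table column, so a direction below is one between columns and not between genotypes. The labels state neither strain, sex nor age.

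Skeletal muscle fibres contract when myosin heads of the thick filament pull on actin of the thin filament. Calcium permits this through the troponin complex, and creatine kinase and myoglobin serve the energy and oxygen supply of the fibre. Mouse dorsal skin has a thin sheet of such muscle, the panniculus carnosus, beneath the dermis and its fat. The amount of this sheet in each dissected piece is not given in the labels.

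Transcripts of all 6 genes were higher in 1 of the 4 libraries, column cKO replicate 1, than in the other 3, where they were low. Myh4 was low in cKO replicate 1 as well, at 1.34 TPM. The summed level of the 6 genes was 1083 and 10.01 TPM in cKO replicates 1 and 2, against 9.29 and 6.02 TPM in WT replicates 1 and 2. TPM is a relative transcript abundance, scaled by transcript length and library total, so that levels of different genes can be set beside each other. The 6 genes held 0.108% of all TPM in cKO replicate 1, a sum 108-fold that of cKO replicate 2, 117-fold that of WT replicate 1 and 180-fold that of WT replicate 2. In tissue RNA of this kind, fewer muscle fibres and less RNA per fibre cannot be told apart.

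**Figure D1:**
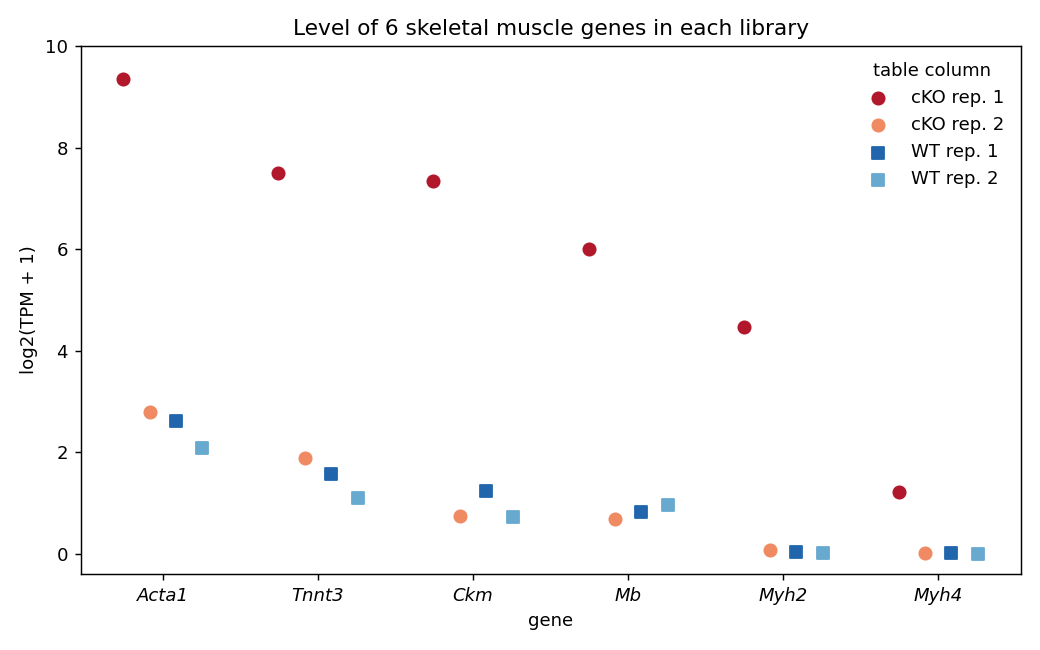
Level of each of the 6 genes, as log2(TPM + 1), in the 4 mouse libraries, with cKO columns as circles and WT columns as squares and 1 point per library. For every gene the point of cKO replicate 1 lies above the other 3, from 9.36 for Acta1 to 1.23 for Myh4.

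Of the thin filament genes, Acta1 (ENSMUSG00000031972) encodes skeletal muscle alpha-actin. It was 655 and 5.93 TPM in the cKO columns, against 5.15 and 3.26 TPM in the WT columns. It was the most abundant of the 6 genes in each library, and it ranked 208 among all rows in cKO replicate 1, against 10135 in cKO replicate 2, 10290 in WT replicate 1 and 11305 in WT replicate 2. Other actin genes are close in sequence to Acta1, and the low levels in 3 libraries are therefore uncertain where the authors' counting could split reads between them.

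Tnnt3 (ENSMUSG00000061723) encodes troponin T of fast muscle, which ties the troponin complex to tropomyosin. It was 180.5 and 2.72 TPM in the cKO columns, against 1.98 and 1.14 TPM in the WT columns. It was second to Acta1 in each library. The table assigns 25 transcripts to Tnnt3, a gene known for extensive alternative splicing, against 2 to 6 for the other 5 genes, and gives 1 value per gene only.

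Of the thick filament genes, Myh2 (ENSMUSG00000033196) encodes the myosin heavy chain of fast oxidative type IIa fibres. It was 21.2 and 0.05 TPM in the cKO columns, against 0.02 and 0.01 TPM in the WT columns. Myh4 (ENSMUSG00000057003) encodes the heavy chain of fast glycolytic type IIb fibres, and was 1.34 and 0.01 TPM in the cKO columns, against 0.01 TPM in WT replicate 1 and a listed 0 in WT replicate 2. In cKO replicate 1 the Myh2 level was thus 15.8 times the Myh4 level. These genes belong to a cluster of near-identical paralogs, so that the split of reads between them is uncertain.

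Of the supply genes, Ckm (ENSMUSG00000030399) encodes muscle creatine kinase, which regenerates ATP from phosphocreatine. It was 161 and 0.68 TPM in the cKO columns, against 1.36 and 0.65 TPM in the WT columns. Mb (ENSMUSG00000018893) encodes myoglobin, the oxygen-binding protein of oxidative muscle fibres and of the heart. It was 63.4 and 0.62 TPM in the cKO columns, against 0.77 and 0.96 TPM in the WT columns. For both genes cKO replicate 2 lay below 1 or both WT libraries, so the groups overlapped.

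The distance between cKO replicate 1 and the next highest library differed between the genes. It was 110.5-fold for Acta1, 119-fold for Ckm, 66.4-fold for Tnnt3 and 66.0-fold for Mb. The next highest library was cKO replicate 2 for Acta1 and Tnnt3, WT replicate 1 for Ckm and WT replicate 2 for Mb. For Myh2 it was 424-fold, and since deposited values are rounded to 2 decimals, rounding alone allows 386-fold to 471-fold. For Myh4 it was 134-fold, and rounding alone allows 89-fold to 269-fold. Error from the sampling of reads is not in these ranges and cannot be given, since TPM do not retain depth.

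The share of each gene in the 6-gene sum was taken for each library. A share is bounded, so its spread cannot be set against that of the sum. Acta1 over Ckm ran from 3.79 in WT replicate 1 to 8.72 in cKO replicate 2. Acta1 over Tnnt3 ran from 2.18 in cKO replicate 2 to 3.63 in cKO replicate 1, and Ckm over Mb from 0.677 in WT replicate 2 to 2.55 in cKO replicate 1. Acta1 made up 60.5% and 59.2% of the sum in cKO replicates 1 and 2, against 55.4% and 54.2% in WT replicates 1 and 2. Tnnt3 made up 16.7% and 27.2% in the cKO columns, against 21.3% and 18.9% in the WT columns. Ckm made up 14.9% and 6.79% in the cKO columns, against 14.6% and 10.8% in the WT columns. Mb made up 5.85% and 6.19% in the cKO columns, against 8.29% and 15.9% in the WT columns. Acta1 and Tnnt3 were first and second in every library, while Ckm stood above Mb in 3 libraries and below it in WT replicate 2. Outside cKO replicate 1, Ckm and Mb were at 0.62 to 1.36 TPM, so their order and the ratios that use them are uncertain there. Myh2 took 1.96% of the sum in cKO replicate 1 and 0.499% in cKO replicate 2, against 0.215% in WT replicate 1 and 0.166% in WT replicate 2. Myh4 was at most 0.124% of the sum in any of the 4 libraries.

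**Figure D2:**
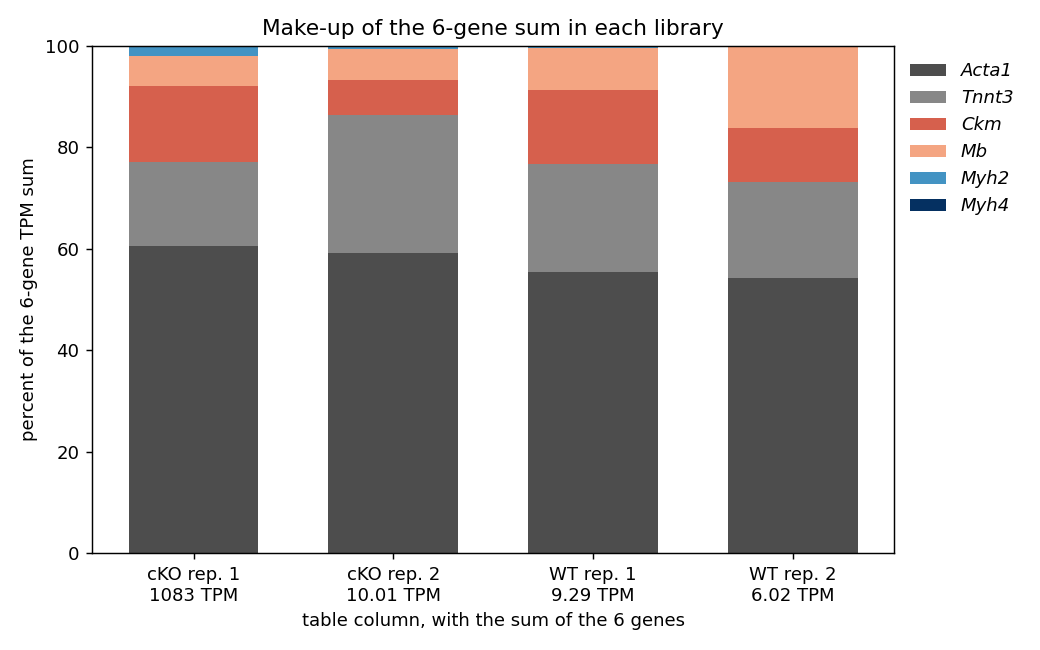
Percent of the 6-gene TPM sum held by each gene in the 4 mouse libraries, cKO columns left of WT columns, with the sum printed under each bar. Acta1 fills between 54.2% and 60.5% of every bar, and the sums run from 6.02 to 1083 TPM.

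The comparison of cKO columns with WT columns was fitted with limma on log2(TPM + 1) over the 14537 genes that reached 1 TPM in 2 or more libraries. Acta1, Tnnt3 and Ckm were tested, and Mb, Myh2 and Myh4 fell under this filter, since each reached 1 TPM in cKO replicate 1 alone. Ckm reached 1 TPM only in cKO replicate 1 and WT replicate 1, so it passed the filter through the library where it is high. The fits below with a library left out kept the same 14537 genes, Ckm included. None of the 3 tested genes passed a Benjamini-Hochberg adjusted p of 0.05 (limma), where 0.0619% of all tested genes passed. None had an unadjusted p under 0.05 either, which held for 15.3% of all tested genes. The difference, cKO minus WT columns, was 3.72 ± 2.28 log2 units for Acta1 (SE, 95% interval -2.51 to 9.95, limma adjusted p = 0.474). It was 3.36 ± 1.95 for Tnnt3 (interval -1.96 to 8.69, limma adjusted p = 0.457) and 3.07 ± 2.29 for Ckm (interval -3.19 to 9.32, limma adjusted p = 0.545). The intervals span 0, and they also hold differences of several log2 units in the direction of the estimate.

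The group means carry the same spread. The 6-gene sum averaged 547 ± 759 TPM in the cKO columns and 7.66 ± 2.31 TPM in the WT columns (SD, n = 2 each), with p = 0.333 in an exact two-sided permutation test, the smallest p that 2 against 2 libraries allow. Both cKO columns lay above both WT columns for 2 of the 3 tested genes, Acta1 and Tnnt3, where this held for 35.4% of all tested genes. It held for Myh2 as well, at 0.05 against 0.02 TPM for the 2 nearest libraries. The median difference over all 6 genes, without a filter, was 2.76 log2 units, beside 0.09 over all tested genes.

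Column cKO replicate 1 decided these values. Without it, cKO replicate 2 alone was set against both WT libraries, assuming that it varies as the WT libraries do, and the median over the 6 genes was 0.03, beside 0.08 over all tested genes. This median was set by Myh2 and Myh4, which were at most 0.05 TPM in those libraries. The log2(TPM + 1) scale holds such genes near 0, so the median says little about muscle transcripts there. The estimate was 0.44 for Acta1 (95% interval -0.44 to 1.31, limma adjusted p = 0.630), 0.56 for Tnnt3 (-0.34 to 1.46, adjusted p = 0.581) and -0.23 for Ckm (-1.25 to 0.79, adjusted p = 0.831), so that the sign for Ckm turned. Without cKO replicate 2, with cKO replicate 1 alone in its group, all 3 tested genes passed, at 7.00, 6.17 and 6.36 log2 units for Acta1, Tnnt3 and Ckm (limma adjusted p = 0.0474 for each). In that fit 0.323% of tested genes passed with a higher level in cKO replicate 1, and the calls speak of that library and not of a group. Without WT replicate 1, WT replicate 2 or cKO replicate 1, 0 of the 14537 tested genes passed in limma, so that the lack of a call for the 3 muscle genes in these fits is no result about them. The number at an unadjusted p under 0.05 was 1330, 778 and 1489 in these fits, with 0 of the 3 muscle genes among them in each.

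**Figure D3:**
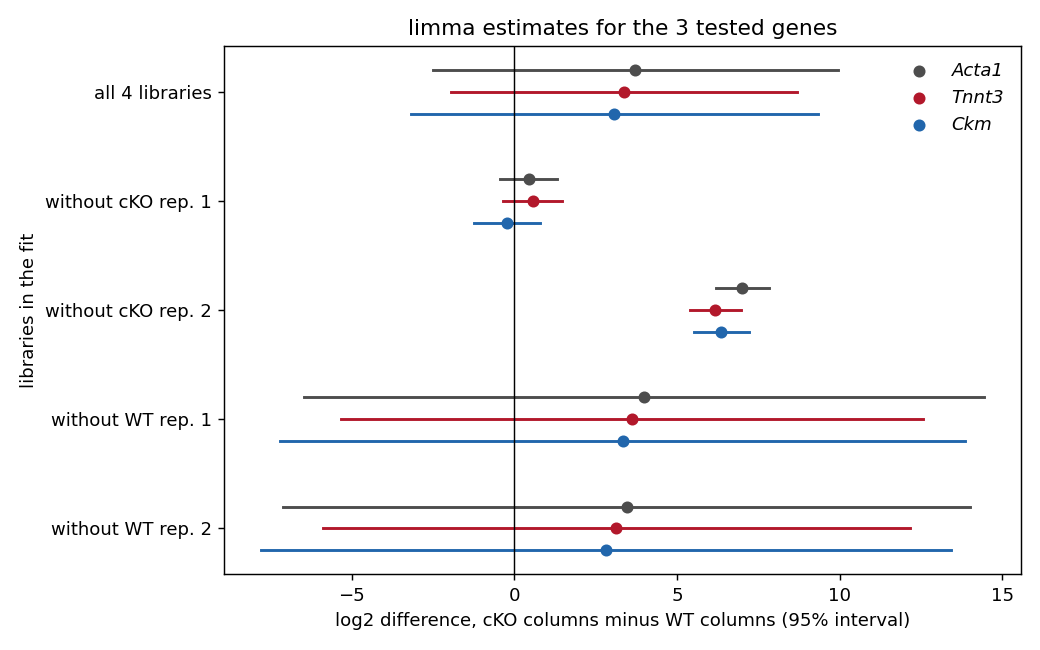
Estimated log2 difference, cKO columns minus WT columns, with its 95% interval for the 3 genes that passed the filter, from all 4 libraries and with each library left out. The intervals lie above 0 only where cKO replicate 2 is left out and cKO replicate 1 stands alone, at 6.17 to 7.00. Their width there comes from the WT libraries only.

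For the 6 genes, the 2 cKO columns differed from each other more than the group means did. The difference between cKO replicate 1 and cKO replicate 2 was 6.57 log2 units for Acta1, 6.60 for Ckm, 5.61 for Tnnt3, 5.31 for Mb, 4.40 for Myh2 and 1.21 for Myh4. Among the 16134 genes with at least 1 TPM in any library, 9 had an absolute difference as large as that of Acta1 or larger, Acta1 included, and 8 as large as that of Ckm. For Myh4 the number was 847, since the log2(TPM + 1) scale compresses the change of low genes. Between WT replicates 1 and 2 the differences ran from -0.15 for Mb to 0.53 for Acta1, and 2053 genes differed at least as much as Acta1. The SD over all 16134 genes was 0.68 between the cKO columns and 0.53 between the WT columns. The 6 genes are 0.0372% of these genes and held 2.16% of the summed squared difference between the cKO columns, against 0.0175% between the WT columns. Mb, Myh2 and Myh4 are among the 16134 genes through cKO replicate 1 alone, so for them this filter in part sets the contrast. Myh2 and Myh4 were also at most 0.02 TPM in the WT columns, where their difference can only be near 0.

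**Figure D4:**
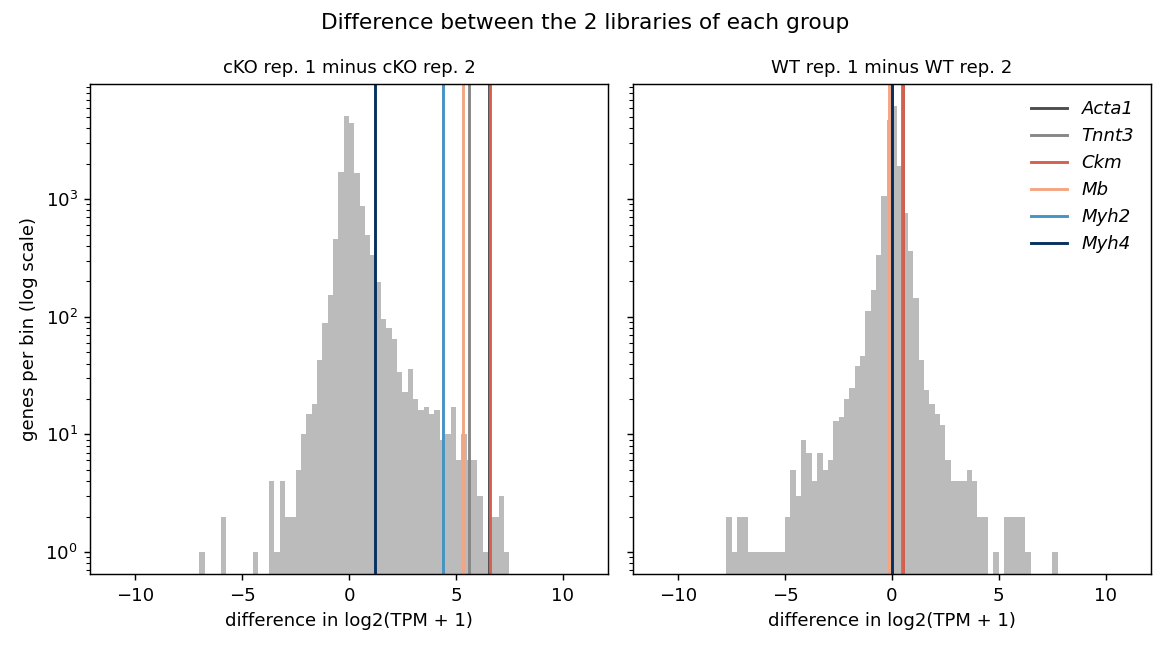
Number of genes by their difference in log2(TPM + 1) between the 2 libraries of a group, for 16134 genes, with the 6 muscle genes as vertical lines. Between the cKO columns the lines run from 1.21 for Myh4 to 6.60 for Ckm, with Acta1 and Ckm nearly on top of each other, while between the WT columns they lie between -0.15 and 0.53.

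The muscle genes were not alone in this pattern. In cKO replicate 1, 276 of the 16134 genes (1.71%) had at least 1 TPM and a level at least 10 times that of each other library. All 6 muscle genes were among them, but the pattern was chosen after their values were seen, so this is no result about them. Acta1 was the third most abundant of the 276, Tnnt3 was 15th, Ckm 16th, Mb 36th, Myh2 67th and Myh4 234th. The 276 genes summed to 11124 TPM, or 1.11% of the library, of which the 6 genes held 9.74%. The other 270 were not sorted by cell type, since the mouse identifiers are used here without gene names, and markers of skin, fat, smooth muscle and immune cells were not analysed here. Their part in the muscle result was not tested.

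Likeness to the muscle genes was measured as the root mean square difference between centred log2(TPM + 1) profiles over the 4 libraries, relative to the mean profile of the 6 genes. Of 10663 other genes with a mean of at least 5 TPM, 28 lay within 0.5 log2 units of it, and the median distance was 2.16. Among the 6 genes themselves the distance ran from 0.20 for Mb and 0.27 for Myh2 to 0.81 for Acta1 and 1.65 for Myh4. The nearest gene was ENSMUSG00000076535, with 29.6 TPM in cKO replicate 1 and a listed 0 in the other 3 libraries, at a distance of 0.099. The next was ENSMUSG00000102364, with 29.3 TPM in cKO replicate 1 and a listed 0 in the other 3, at 0.10. All 10 nearest genes had 25.4 to 58.5 TPM in cKO replicate 1 and at most 0.65 TPM in any other library. Each thus met the mean of 5 TPM through cKO replicate 1 alone, and this filter in part sets the range. With 4 libraries, of which 1 is high, likeness of this kind says only that a gene is high in the same library.

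The human counterparts of the 6 genes were at or near 0 in the A375 libraries of the same series, a human melanoma line cultured with LL-37 at 80 µg/mL or without it for 24 h (n = 3 each). CKM, MYH4, MYH2, TNNT3 and MB were listed at 0 in all 6 libraries. ACTA1 was 0.1, 0.14 and 0.08 TPM with LL-37, against 0.1, 0.16 and 0.18 TPM without it. The human and mouse tables were scaled separately, so these levels are not set against the mouse values.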

How the data were processed

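Stranded mRNA libraries were made from total RNA, per the labels' protocols, which name cultured keratinocytes as the source for every sample. The authors deposited TPM per gene for each species, rounded to 2 decimals, and each library sums to about 1000000. Genome builds were GRCm39 and GRCh38, per the submitters' processing notes. The aligner is not given in the sources used here, nor is the quantifier. Since TPM do not retain depth, no counting interval can be given. A few abundant genes can also shift the TPM of all others.

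Mouse libraries were grouped by table column. Values were tested as log2(TPM + 1) with limma 3.58.1 in R 4.3.3 (moderated, intensity trend, two-sided), adjusted over all tested genes by Benjamini-Hochberg, threshold 0.05. The 6 genes and all lists were chosen with earlier results of these data known. All 6 genes are described in every library. The rule for the 10 nearest profiles was to leave out every listed gene, but only the 6 genes were left out. Genes of the other lists, which were not matched to the mouse values, can thus be among the 10. The 10-fold pattern and the human counterparts were added after the values were seen. The 19 other lists, holding 165 gene entries with Camp among them, were not analysed here, since mouse identifiers were named only for the 6 genes. Coordinates and sequences of the mouse genes were not used here. The alternatives were other pseudocounts, filters, scalings, no trend, a replicate block and each library left out.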

Additional observations from a re-analysis of the deposited data

How the results depend on the processing

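The count of 9 genes past the threshold became 3 with a pseudocount of 0.1, 0 with a pseudocount of 5 (2160 genes at an unadjusted p under 0.05), 0 with no filter (2869 at an unadjusted p under 0.05), 3 with a filter of 5 TPM and 17 without the intensity trend. Leaving out 1 library at a time gave 0 to 55. The cause was not tested. With the replicate number as a block (replicate block) 6 genes passed and no muscle gene did. Same-numbered libraries share only a number, and their deviations from the group means correlated at 0.22 over 14537 genes. Of the muscle genes, 0 passed under every setting that kept all 4 libraries. The log2 difference of Ckm was -0.23 without column cKO replicate 1 and 6.36 without column cKO replicate 2, and the median over the 6 genes was 0.03 to 5.64 over the libraries left out. The low end of that range rests on Myh2 and Myh4, at most 0.05 TPM in the libraries of that fit. Quantile normalization moved the median of all genes from 0.09 to -0.04 log2 units, with 2.70 for the 6 genes. All 6 genes entered the fit with no filter only, each with an adjusted p of 0.669 (limma). The planned settings for other listed muscle genes were not run, since those genes were not matched to the table. Without counts, the precision of the levels near 0 is unknown.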

Other observations

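The other 3 mouse libraries also had genes at least 10 times above every other library. The 6 muscle genes could not be among them, since each met this pattern in column cKO replicate 1. There were 42 such genes in column cKO replicate 2, 54 in column WT replicate 1 and 147 in column WT replicate 2, out of 16134. Their summed level was 192, 467 and 2446 TPM in these libraries. The number of genes at 1 TPM or more was 14970 in column cKO replicate 1 and 14321 in column cKO replicate 2, against 14071 and 14044 in the WT columns.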
